A study of Mus musculus with 51 samples.

Results

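RNA of mouse embryonic stem cells (mESC) knocked down (KD) for LoNA was compared with RNA of control mESC, both called 2C-like, meaning like the embryo at its 2-cell stage, and both of strain C57BL/6. The labels give no age, passage, clone, feeder layer or knockdown reagent, and name no other allele or agent for either group. All genes of the mESC count table were compared, which is 28921 genes against 37411 over the 4 tables of this and the embryo experiments used here. The labels list 3 samples in each mESC group, while the table has 2 count columns per group, called C1 and C2 for control and K1 and K2 for KD, and none could be tied to a labelled sample. The series has 51 labelled samples in 17 groups, and the others are embryos with or without LoNA.

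LoNA is a long noncoding RNA of the nucleolus, the nuclear body in which ribosomal RNA is made and ribosomes are assembled. Mouse embryonic stem cells are held in a naive state by a network of transcription factors that includes Oct4 (the product of Pou5f1), Sox2, Nanog and Esrrb. Rare cells of such cultures turn on genes that are otherwise confined to the early cleavage embryo, among them the Zscan4 family and Dux, and are then called 2-cell-like. Sympathetic neurons and the chromaffin cells of the adrenal medulla descend from the neural crest, are specified by Hand2 and Gata factors among others, and store catecholamines and granins in dense-core vesicles.

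The columns of a group were nearly the same. Pearson's r of log2(CPM + 1), where CPM is a count divided by its library's size after TMM scaling (trimmed mean of M values), was 0.9969 within control and 0.9967 within KD, against 0.9108 to 0.9152 between the groups. The chi-square per degree of freedom of the counts was 1.99 and 3.079 within the groups and 111.7 to 121.8 between them. Within a group the counts therefore differed by more than sampling noise, but so little that the columns were summed and each group was counted as 1 library. No difference below has a replicate check or a p, the values show the size of a difference between these libraries, and each 95% interval of a fold (exact, from the binomial distribution of the counts) covers counting error only. Total counts per column ran from 16906302 to 17674190, 23637 to 23957 genes had a count, and mitochondrial transcripts held 1.48% to 1.53% of control counts and 2.24% to 2.26% of KD counts. In bulk RNA, fewer cells of a type and less RNA per cell cannot be told apart.

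Genes were described where either group reached 1 CPM, which left 15360 genes, and a gene was called higher or lower in KD where its level differed by at least 2-fold. By that rule 2487 genes (16.2%) were higher in KD, 1875 genes (12.2%) were lower, and 10998 lay between. The median log2 fold over all 15360 genes was 0.06. With the libraries scaled by total counts instead of TMM the median moved by -0.1188, and 2151 genes were higher and 2453 lower, so that 46.7% of the called genes were higher against 57.0% with TMM. Differences smaller than that shift depend on the scaling. The genes called higher held 4.23% to 4.26% of the counts of the control columns and 13.1% to 13.4% of those of the KD columns, and the genes called lower held 5.57% to 5.67% and 2.18% to 2.31%.

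**Figure D1:**
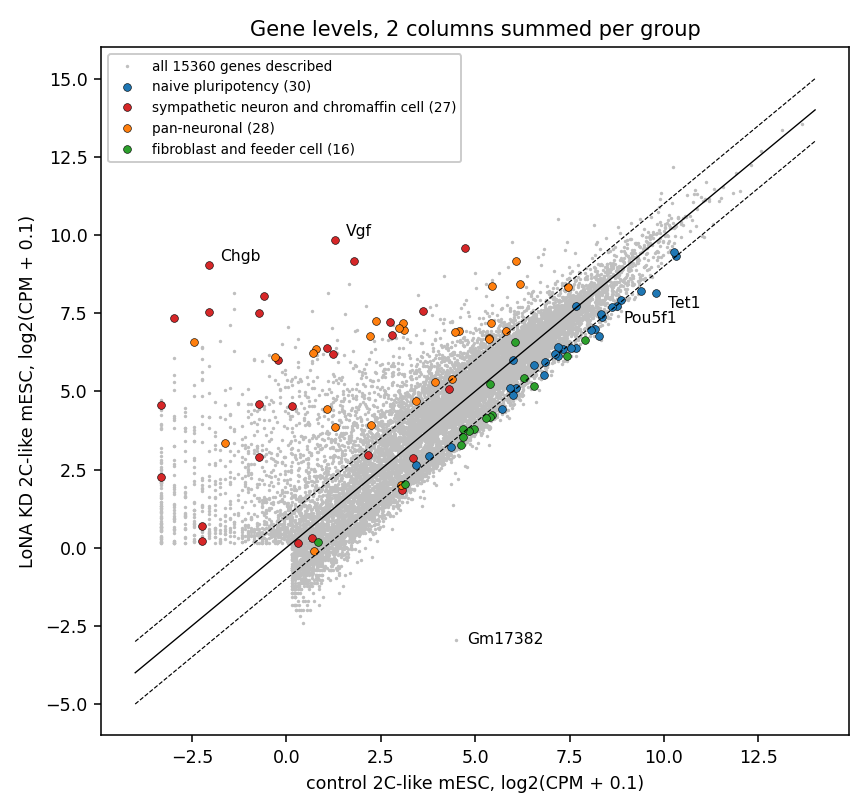
Level of each of the 15360 genes described, in control (x axis) and LoNA KD (y axis) 2C-like mESC, as log2(CPM + 0.1) of the 2 summed columns of a group. The solid line marks equal levels and the dashed lines a 2-fold difference. Most sympathetic, chromaffin and neuronal genes lie above the upper line, some of them far above it. Most naive pluripotency and fibroblast genes lie near the lower one.

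The differences were unequal in size. Among the 8831 genes with at least 20 CPM in either group, 1251 were at least 2-fold higher and 473 at least 2-fold lower in KD. At 4-fold these numbers were 457 and 8, at 10-fold 219 and 1, and at 100-fold 47 and 1. Many of the genes higher in KD reached 20 CPM there alone. Among the 7650 genes with at least 20 CPM in control, 481 were at least 2-fold higher and 473 at least 2-fold lower, 54 and 8 at 4-fold, 3 and 1 at 10-fold, and 0 and 1 at 100-fold. The count of genes higher thus depends on which group sets the least level, and at 2-fold the directions were nearly even among genes present in control. The 1 gene past 10-fold in the lower direction was Gm17382, which is taken up below. Of the 7457 protein-coding genes with at least 20 CPM in control, 99% were less than 2.58-fold lower in KD, and the lowest was Gm2381 at 5.04-fold (95% interval 4.19 to 6.10).

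**Figure D2:**
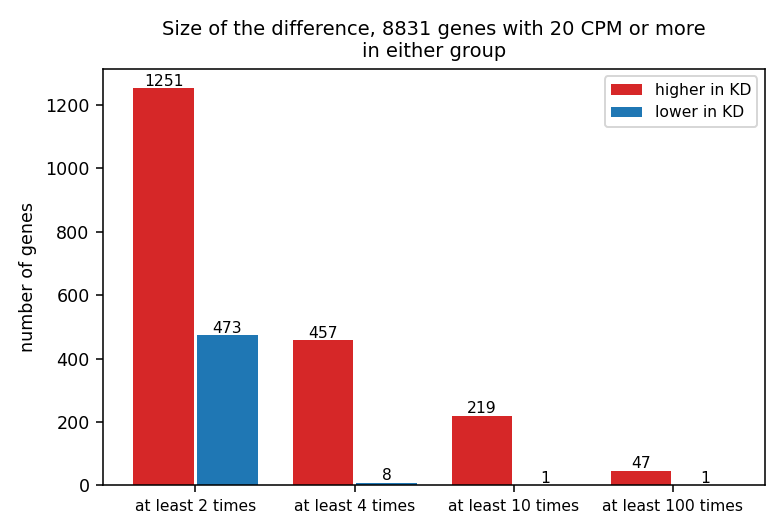
Number of genes (y axis) at least 2, 4, 10 and 100 times higher (red) or lower (blue) in LoNA KD than in control, among the 8831 genes with 20 CPM or more in either group. Genes higher in KD outnumber genes lower in KD at each size, 457 against 8 at 4 times, while among the 7650 genes with 20 CPM or more in control, not drawn here, the numbers are 481 against 473 at 2 times and 54 against 8 at 4 times.

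No gene of the table carries the name LoNA, so the knockdown could not be read under that name. Gm17382 (ENSMUSG00000078838) is a lincRNA, a long RNA from between genes, with mm10 coordinates 26860287 to 26886175 on chromosome 17 (minus strand), and is named because it had been found lost in the embryos. It had 402 and 382 counts in the control columns and 0 and 1 in the KD columns, which is 22.2 CPM against 0.0297 CPM and 748-fold lower (95% interval 134 to 29580). Its log2 fold of -9.55 ran from -9.58 to -6.98 when a column was left out. In the authors' deposited table its mean is 0.257, where these counts give 191.1. With both control columns set to 0 the counts give 0.257, the deposited mean, and the fold in the authors' deposited table is 0.00673. Its control level in mESC is therefore uncertain. Cdkn1a, Zfp414 and Zmat4 also have a mean in the authors' deposited table that differs from their counts.

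The label 2C-like was set against genes of the 2-cell stage. Of 35 listed genes 32 were in the table and 11 reached 1 CPM, 6 of them in control alone. Of the 11, 6 were called lower and 5 lay between. The summed level of the list was 47.7 and 48.0 CPM in the control columns and 27.8 and 25.9 CPM in the KD columns. In control embryos at 18 h, 20 h and 22 h the same sum was 1347 to 2706 CPM, from tables that were deposited separately. At 22 h most of the embryo sum came from Sp110, at 622 to 986 CPM, and Arg2, at 311 to 363 CPM. The embryo sum is therefore no measure of the Zscan4 and Dux genes alone. Zscan4d stood at 1.98 and 3.13 CPM in control mESC and at 1.06 and 1.08 CPM in KD mESC. In the control embryos it stood at 5.71 to 261 CPM, and at 22 h alone at 5.71 to 45.3 CPM. Duxf3 had 0 and 2 counts in control and none in KD, and Zfp352 had 1, 1, 0 and 3 counts. With 5 CPM required in one group, only 1 gene of the list remained. The genes named here were thus at a few CPM or fewer in both mESC groups, and the name 2C-like is kept only as a label. The Zscan4, Usp17l and Gm5662 genes belong to families of near-identical copies, among which counting can split reads, so their single values are uncertain.

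Transcription factors of the sympathetic and adrenal lineage were among the genes with the largest differences. Hand2 (chromosome 8 from 57320983 to 57324633), a basic helix-loop-helix factor of this lineage, stood at 0.339 and 0.796 CPM in control and at 255 and 280 CPM in KD, 472-fold higher (interval 305 to 773), with a log2 fold from 8.39 to 9.62 when a column was left out. As the columns of a group are nearly the same, these column values are no replicate check. Phox2a, a homeobox factor of autonomic neurons, stood at 6.68 and 6.94 CPM in control and at 109 and 115 CPM in KD, 16.4-fold higher (interval 14.4 to 18.8). Insm1, a zinc finger factor of neuroendocrine cells, was 41.2-fold higher (2.01 to 82.9 CPM), Isl1, a LIM homeobox factor, 22.7-fold (1.02 to 23.2 CPM), and Gata3 14.6-fold (0.510 to 7.43 CPM). Hand1 was between, at 1.503 CPM in control and 1.13 CPM in KD, and Eya1, a coactivator, was 2.37-fold lower (8.25 to 3.48 CPM).

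The catecholamine pathway was uneven. Th, tyrosine hydroxylase, which catalyses the first step, stood at only 0.113 CPM in control and 1.07 CPM in KD, 9.43-fold higher (interval 3.38 to 36.5), and its log2 fold of 3.24 ranged from 2.66 to 4.23 when a column was left out. Ddc, which makes dopamine, was not called, at 10.2 CPM in control and 7.22 CPM in KD. Dbh, which turns dopamine into noradrenaline, had no counts in control and 367 and 421 in KD (23.4 CPM), at least 275-fold higher. Pnmt, which makes adrenaline, had 8 and 7 counts in control and 1 and 2 in KD, and Slc6a2, the noradrenaline transporter, had 10, 6, 3 and 4 counts, so neither reached 1 CPM. Slc18a2, the vesicular monoamine transporter, stood at 1.92 and 2.62 CPM in control and at 74.3 and 71.2 CPM in KD, 32.1-fold higher (interval 25.7 to 40.6). Its adrenal paralog Slc18a1 stood at 1.13 CPM in control and 1.01 CPM in KD. The transporter and Dbh were thus high in KD while Th stayed near 1 CPM.

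Most of the secretory and receptor genes named here were higher in KD. Chga, chromogranin A, stood at 11.5 and 13.0 CPM in control and at 184 and 197 CPM in KD, 15.6-fold higher (interval 14.1 to 17.2). Scg3, a granin that binds granules to the membrane, went from 0.510 to 183 CPM, 358-fold higher (interval 226 to 605), and Scg5, a chaperone of prohormone convertase, from 0.766 to 64.1 CPM, 83.7-fold higher. Among receptors, Ntrk3, for neurotrophin 3, went from 0.510 to 23.9 CPM and was 46.8-fold higher, with a log2 fold of 5.55 that ran from 5.02 to 6.39 when a column was left out, and Ngfr, the shared neurotrophin receptor, from 14.3 to 175 CPM and was 12.2-fold higher. Chrna3, the nicotinic receptor subunit through which ganglion cells are driven, had 4 and 0 counts in control and 1091 and 1096 in KD, 573-fold higher (interval 224 to 2105), with a log2 fold from 8.17 to 9.18 when a column was left out. Its partner Chrnb4 was 2.26-fold lower (3.09 to 1.37 CPM). Npy and Cartpt, peptides of sympathetic cells, stood at 1.52 and 4.67 CPM in KD, with 4 counts and no count in control.

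Over the 31 listed sympathetic and chromaffin genes, 27 were described, of which 21 were higher, 1 was lower and 5 lay between, with a median log2 fold of 4.84 against 0.06 over all genes described. For 12 of the 27 only KD reached 1 CPM. Among the other 15, which reached 1 CPM in both groups, 9 were higher and 1 was lower. Of all 13632 genes that reached 1 CPM in both groups, counted by symbol, 1748 were higher and 1304 lower. The list's summed level was 113 CPM in each control column and 4304 and 4502 CPM in the KD columns. Genes of other neural cell types were set beside it. Of 15 neural progenitor genes 9 were described, with 3 higher and 2 lower, and Pax6, Nes, Sox11 and Msi1 between; 2 of the 3 higher reached 1 CPM in KD alone. Of 13 neural crest and glial genes 10 were described, with 4 higher (Tfap2b, Ets1, Pax3 and Ngfr) and 2 lower (Sox10 and Tfap2a). Of these, Tfap2b and Pax3 reached 1 CPM in KD alone, and of the 7 present in both groups 2 were higher and 1 lower. The lower call of Tfap2a was lost when a KD column was left out, with a log2 fold from -1.65 to -0.57.

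Promoters of 2 granin genes are shown because these genes had the largest ratios of the granins and share a motif. They are 250 bases before and 50 bases after the RefSeq start on GRCm38.p6, written 5′ to 3′ on the gene's own strand. The promoter of Chgb, chromogranin B, lies at chr2:132781392-132781691 on the plus strand, and that of Scg2, secretogranin II, at chr1:79439977-79440276 on the minus strand. Capitals mark the cAMP response element TGACGTCA, which reads the same on both strands, and, in Scg2, GGTGCTGAA, a part of the site bound by REST, a repressor of neuronal genes.
Chgb: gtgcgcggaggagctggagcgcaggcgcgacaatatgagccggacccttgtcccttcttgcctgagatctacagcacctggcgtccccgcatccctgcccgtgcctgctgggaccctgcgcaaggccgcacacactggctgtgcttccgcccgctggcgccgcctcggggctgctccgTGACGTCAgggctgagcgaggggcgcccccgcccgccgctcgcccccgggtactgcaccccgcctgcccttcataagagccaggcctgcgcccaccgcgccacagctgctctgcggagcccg
Scg2: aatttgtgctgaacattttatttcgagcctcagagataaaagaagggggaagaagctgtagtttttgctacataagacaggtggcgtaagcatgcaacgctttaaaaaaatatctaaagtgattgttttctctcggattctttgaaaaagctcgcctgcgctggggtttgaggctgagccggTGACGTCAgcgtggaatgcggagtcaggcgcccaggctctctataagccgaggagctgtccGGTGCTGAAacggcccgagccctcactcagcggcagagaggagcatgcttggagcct

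The response element starts 72 bases before the start of Chgb and 68 bases before that of Scg2. In control Chgb stood at 0.0566 and 0.227 CPM and in KD at 505 and 551 CPM, a ratio of 3723 (95% interval 1595 to 11469), and its log2 fold of 11.86 ranged from 11.18 to 13.19 when a column was left out. Scg2 stood at 0.170 and 0.114 CPM in control and at 187 and 184 CPM in KD, a ratio of 1310 (interval 561 to 4035). Of the 17 sympathetic and chromaffin genes matched to a promoter by symbol, 5 held TGACGTCA, namely Cartpt, Chgb, Scg2, Slc18a2 and Th. Over all 32851 promoters of this length the share was 1.79%. It was 3.07% of 1728 genes called higher, 2.33% of 1203 genes called lower and 3.99% of 7999 genes between, so genes called higher as a group did not hold the element more often than genes between. GGTGCTGAA, searched on both strands, was in 0.371% of all promoters, 0.984% of genes called higher, 0.499% of genes called lower and 0.400% of genes between. These matches are letters in a window and say nothing of binding. Rest itself was 2.23-fold lower in KD (456 and 461 CPM in control, 213 and 197 CPM in KD), while of the 9 listed genes of its complex the only other called gene was Rcor3, 3.24-fold higher.

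Most genes shared by all neurons were higher as well. Of 30 listed pan-neuronal genes 28 were described, of which 25 were higher, Nefl was lower, and Stmn2 and Rbfox3 lay between; the median log2 fold was 2.52. Of the 24 that reached 1 CPM in both groups, 22 were higher, against 1748 of all 13632 genes that did so. Map1b, a microtubule-binding protein of growing axons, stood at 143 and 152 CPM in control and at 1462 and 1439 CPM in KD, 9.83-fold higher (interval 9.56 to 10.1). Tubb3, neuronal tubulin, went from 67.1 to 581 CPM, Gap43, a growth cone protein, from 8.65 to 124 CPM, and Elavl4, an RNA-binding protein of neurons, from 4.54 to 110 CPM. Vesicle genes followed, with Snap25 at 1.62 and 81.8 CPM (50.6-fold) and Syt1 at 1.53 and 75.3 CPM (49.2-fold). Rbfox3, the marker of mature neurons known as NeuN, stood at 1.56 CPM in control and 0.832 CPM in KD, and Nefl, the light neurofilament, at 8.08 and 3.92 CPM. The list's sum was 682 and 702 CPM in control and 3418 and 3489 CPM in KD.

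**Figure D3:**
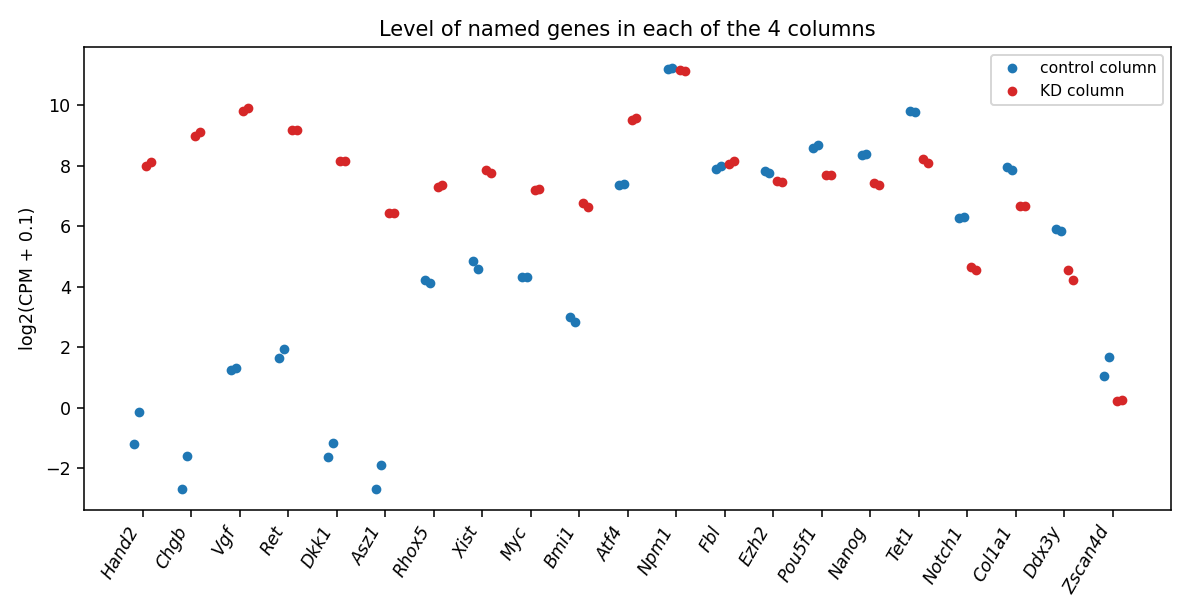
Level of 21 named genes in each of the 4 columns, as log2(CPM + 0.1), with the control columns in blue and the KD columns in red. The 2 columns of a group lie close together, except where a gene has only a few counts, and the groups lie closest for Npm1 and Fbl.

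Genes silent in control and present in KD included germline genes of the X chromosome. The Rhox genes are a cluster of reproductive homeobox genes, and of 32 listed 26 were in the table and 13 were described. Of these 10 were higher, though 8 of the 10 reached 1 CPM in KD alone, and Rhox6 was lower, a call lost without K1 (log2 fold from -1.92 to -0.58). Rhox5, the founding member, stood at 18.6 and 17.2 CPM in control and at 157 and 163 CPM in KD, 8.93-fold higher (interval 8.22 to 9.71). Rhox1 went from 1.36 to 15.4 CPM. Rhox2a, Rhox2c and Rhox2g had no counts in control and 14.1, 15.4 and 13.9 CPM in KD, at least 166-fold, 181-fold and 164-fold higher, and Rhox2h had 2 counts in control against 621 in KD. The Rhox2 copies are near-identical, so how reads fall among them is uncertain. Rhox9 and Rhox13, in the same cluster, were not called (1.56 to 1.07 CPM and 1.19 to 0.624 CPM).

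Other genes of the germline did not follow. Of 24 listed genes that DNA methylation keeps silent outside the germline, 21 were described, with a median log2 fold of -1.01. Of these 2 (9.52%) were higher and 11 (52.4%) lower, against 16.2% and 12.2% over all genes described. Asz1, which takes part in the piRNA pathway, was an exception with 1 and 3 counts in control and 1478 and 1425 in KD, 761-fold higher (interval 297 to 2794), and its log2 fold ran from 8.98 to 10.57 when a column was left out. Tdrkh, of the same pathway, was 4.26-fold higher (11.6 to 49.5 CPM). Ddx4, the germ cell helicase, was 2.14-fold lower (36.5 to 17.0 CPM), Stag3, a meiotic cohesin, 2.56-fold lower (108 to 42.2 CPM) and Sycp3, of the synaptonemal complex, 2.12-fold lower (12.2 to 5.74 CPM). Of 15 DNA methylation genes 2 (13.3%) were called, both higher, against 16.2% higher over all genes described. Tet3, an oxidase of methylcytosine, was one of them at 3.54-fold (25.5 to 90.2 CPM). Its relatives Tet1 and Tet2, which the naive list holds, were 3.10-fold and 2.41-fold lower.

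Genes of the sex chromosomes differed between the libraries. Xist, the RNA that coats the inactive X chromosome, stood at 28.4 and 23.9 CPM in control and at 231 and 215 CPM in KD, 8.54-fold higher (interval 7.97 to 9.15). Its antisense partner Tsix was 2.73-fold lower (1.13 to 0.416 CPM); whether counting used strand is not given in the sources used here, so their reads may not be told apart. Genes of the Y chromosome were present in both groups and lower in KD, with Ddx3y at 60.4 and 56.8 CPM against 23.4 and 18.6 CPM, Uty at 35.9 against 12.6 CPM, and Eif2s3y at 86.9 against 39.3 CPM. Of the 6 described genes on chromosome Y 5 were lower, with a median log2 fold of -1.49. Over the 545 described genes of chromosome X the median was -0.10, and over the autosomes the medians ran from -0.10 on chromosome 14 to 0.31 on chromosome 10.

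Several secreted and signalling regulators were among the largest differences. Dkk1, a secreted inhibitor of Wnt signalling, stood at 0.226 and 0.341 CPM in control and at 285 and 287 CPM in KD, 1008-fold higher (interval 548 to 2103). Lgr5, a receptor that enhances Wnt signalling, was 146-fold higher (0.227 to 33.1 CPM). Of the 19 described Wnt targets and regulators 3 were higher and 3 lower (15.8% each), with a median log2 fold of -0.84. Over all genes described 16.2% were higher and 12.2% lower. Dusp4 and Dusp6, phosphatases that restrain the kinase ERK, were 6.74-fold (39.3 to 265 CPM) and 4.19-fold higher (43.4 to 182 CPM). Of 16 genes of that feedback 4 (25%) were higher and 2 (12.5%) lower, also near the shares over all genes described. Myc, a growth-promoting transcription factor, stood at 19.9 and 20.0 CPM in control and at 145 and 150 CPM in KD, 7.40-fold higher (interval 6.83 to 8.02), and Egr1 was 3.47-fold higher (16.3 to 56.7 CPM). Of 18 described immediate early genes 7 (38.9%) were higher and 1 (5.56%) lower, against those same shares of 16.2% and 12.2%.

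Other genes with the largest ratios had no list. Slc10a4, a vesicle transporter of aminergic and cholinergic neurons, was 736-fold higher (0.113 to 83.5 CPM, 95% interval 287 to 2704). Bace2, a transmembrane protease, was 692-fold higher (0.284 to 196 CPM, interval 376 to 1444). Slc7a14 was 543-fold higher (0.255 to 139 CPM), with a log2 fold of 9.08 that ran from 8.45 to 10.25 when a column was left out, and Lrrn3, a leucine-rich repeat protein of neurons, 488-fold higher (0.199 to 96.8 CPM). Both 4930550L24Rik and Gm773, on the X chromosome, had 1 count in control and 67.3 and 39.2 CPM in KD. In all, 10 genes had no count in control and at least 10 CPM in KD, and none had the reverse. Clvs1, a lipid-binding protein of neurons, and St18, a zinc finger factor, were 2 of them, at least 222-fold and 177-fold higher.

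Most genes of the amino acid response were higher. Atf4, the transcription factor at its centre, stood at 165 and 169 CPM in control and at 718 and 757 CPM in KD, 4.41-fold higher (interval 4.29 to 4.54). Of the 22 listed genes of this response, all described in both groups, 15 (68.2%) were higher and none lower, with a median log2 fold of 1.40. Slc7a11, the cystine transporter, was 22.8-fold higher (1.503 to 34.3 CPM), Chac1, which breaks down glutathione, 15.2-fold (6.72 to 102 CPM), Trib3 4.15-fold (28.8 to 120 CPM) and Asns, asparagine synthetase, 2.73-fold (351 to 959 CPM). Ddit3, which is induced when the response is prolonged, was not called at 33.0 and 63.9 CPM. Of 16 chaperones and related genes of the endoplasmic reticulum 2 were called, both higher, namely Herpud1 at 4.29-fold and Xbp1 at 2.35-fold. That is 12.5% higher, against 16.2% over all genes described.

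Most mitochondrially encoded transcripts were higher too. Of 15 listed, 13 were described, of which 9 (69.2%) were higher and none lower, with a median log2 fold of 1.14. Over all genes described 16.2% were higher. Mt-Cytb, cytochrome b, showed the largest difference in level of any gene, with 1162 and 1255 CPM in control and 4476 and 4685 CPM in KD, 3.79-fold higher (mt-Cytb, 95% interval 3.75 to 3.83). Mt-Co1, the most abundant of them, was at 8942 and 10497 CPM and mt-Nd5 at 1550.2 and 2471 CPM, neither called. The call of mt-Nd3 held when any column was left out, but its log2 fold of 2.39 ran from 1.90 to 3.13. Actb and Actg1, cytoplasmic actins often used as references, were 2.65-fold and 2.34-fold higher.

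**Figure D4:**
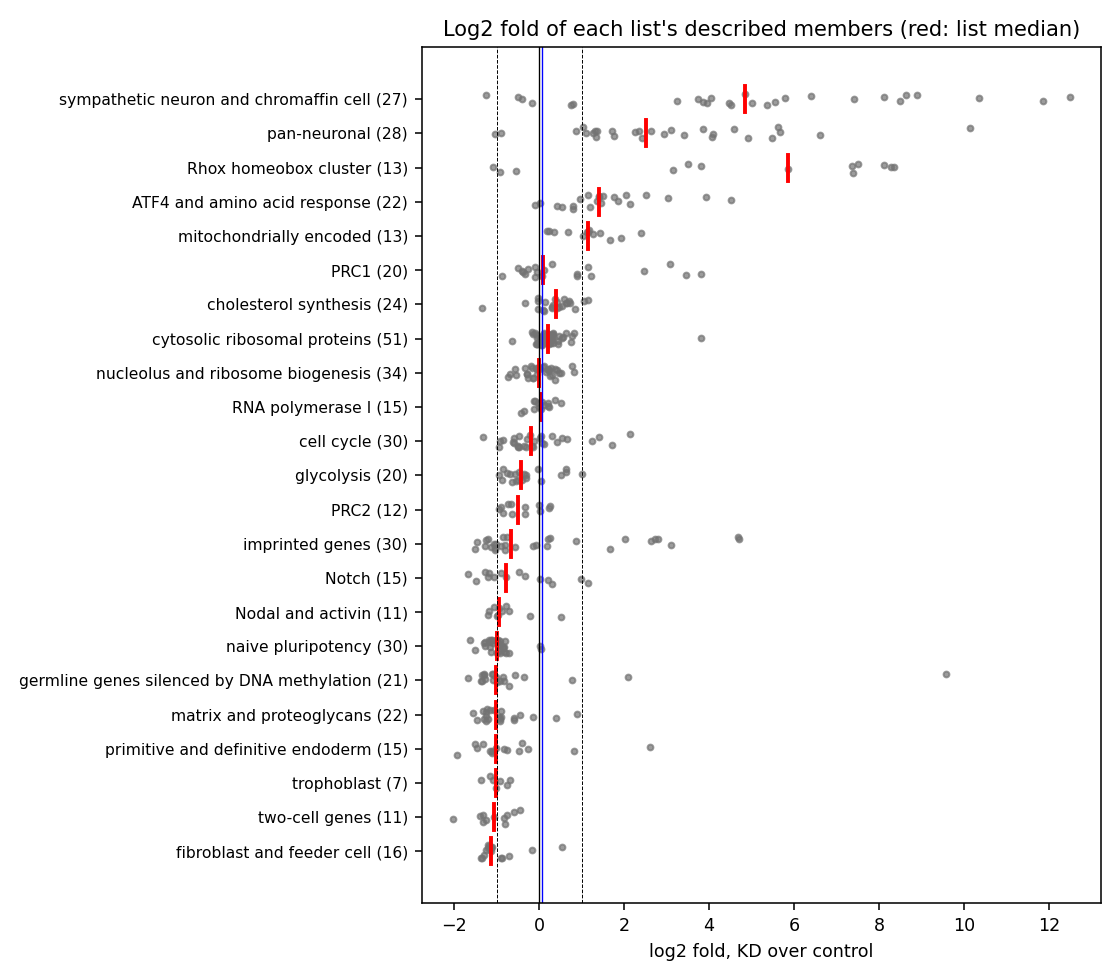
Log2 fold, KD over control, of each described member (grey points) of 23 gene lists, with the list's median in red and the number of described members in brackets. The blue line is the median of all 15360 genes described (0.06) and the dashed lines mark a 2-fold difference. Neuronal, Rhox and amino acid response genes extend far to the right. Most pluripotency, endoderm, trophoblast and fibroblast genes lie to the left, with list medians near the left dashed line.

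Most members of the pluripotency network had a lower level in KD, near the 2-fold line, and fewer passed it. All 30 listed naive genes were described, 28 had a log2 fold below 0, and their median was -0.98, with quartiles of -1.15 and -0.85. Of these 13 (43.3%) were called lower, against 12.2% over all genes described, 17 lay between and none was higher. With scaling by total counts 21 were lower. Pou5f1 stood at 381 and 407 CPM in control and at 207 and 206 CPM in KD, and so was 1.91-fold lower in level (interval 1.85 to 1.96), just short of the call. Nanog, at 326 and 333 CPM against 170 and 164 CPM, and Sox2, at 470 and 455 CPM against 250 and 233 CPM, stood 1.98-fold and 1.91-fold lower in level and were not called. Fgf4, the growth factor that these cells secrete, was 2.16-fold lower (267 to 124 CPM), Tbx3 2.18-fold (63.9 to 29.3 CPM), Prdm14, a repressor of differentiation genes, 2.203-fold (20.3 to 9.21 CPM) and Zfp42 2.03-fold (432 to 213 CPM). The members with equal levels were Dppa2, at 64.1 and 64.6 CPM, and Lin28a, an RNA-binding protein that blocks let-7, at 202 and 210 CPM. The sum of the list was 8704 and 8760 CPM in control and 4412 and 4308 CPM in KD.

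Genes of formative and primed pluripotency, the states that follow the naive one, were mixed. Of the 14 described, 3 (21.4%) were higher and 4 (28.6%) lower, against 16.2% and 12.2% over all genes described. The higher genes were Fst (4.31 to 14.6 CPM), Sall2 (10.8 to 27.9 CPM) and Grhl2 (9.39 to 20.0 CPM). Otx2, which drives the exit from the naive state, was 2.14-fold lower (11.6 to 5.41 CPM) and Dnmt3b 2.07-fold lower (174 to 84.0 CPM). Lifr, a subunit of the receptor for the cytokine LIF that maintains mESC, was 2.58-fold lower (131 to 50.6 CPM), and Socs3, induced by LIF, 2.103-fold lower (316 to 150 CPM). Those 2 were the only called genes of the 9 in the LIF list (22.2%). Of 11 Nodal and activin genes 3 (27.3%) were lower and none higher, and Nodal itself stood at 48.0 and 24.3 CPM.

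Marker genes of several cell types other than stem cells and neurons mostly had lower levels in KD. Of 18 fibroblast and feeder cell genes 16 were described, all in both groups, with 11 lower and none higher, a median log2 fold of -1.14 and quartiles of -1.21 and -0.90. Their summed level was 973 and 953 CPM in control and 506 and 504 CPM in KD. Col1a1, of the main fibroblast collagen, stood at 248 and 234 CPM in control and at 101 and 100 CPM in KD, 2.40-fold lower (interval 2.30 to 2.50), and Col3a1 was 2.30-fold lower (41.8 to 18.2 CPM). Of 21 endoderm genes 15 were described, with 8 lower, only Foxa1 higher (1.25 to 7.64 CPM) and a median of -1.01. Of 14 trophoblast genes 7 were described, with 4 lower, none higher and a median of -1.02, and their sum went from 125 and 126 CPM to 60.8 and 60.004 CPM. Of 10 blood cell genes 3 were described, with 2 lower and a median of -1.08. The shares lower were 68.75% (fibroblast), 53.3% (endoderm), 57.1% (trophoblast) and 66.7% (blood), against 12.2% over all genes described. These lists of unlike cell types thus had medians between -1.14 and -1.01, beside -0.98 for naive pluripotency. Mesoderm was mixed, with 4 of 7 described genes higher (Tal1, Nkx2-5, Gata4 and Tbx20) and 2 lower (Eomes and Mef2c). Its median of 2.59 became -0.07 with no filter beyond 10 counts, where 14 genes counted. The part of these cell types in the results on pluripotency and neuronal genes was not tested.

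Adhesion and matrix genes were lower in part. Of the 25 adhesion genes, all described, 10 (40%) were lower, 3 (12%) higher and 12 between. Over all genes described 12.2% were lower and 16.2% higher. Cdh1, E-cadherin, which holds mESC colonies together, stood at 596 and 600 CPM in control and at 263 and 249 CPM in KD, 2.33-fold lower (interval 2.27 to 2.39), and Fn1, fibronectin, was 2.17-fold lower (2127 to 981 CPM). Vim, vimentin, was 2.80-fold higher (440 to 1230 CPM) and Zeb2, a repressor of Cdh1, 4.64-fold higher (12.2 to 56.5 CPM). Of 22 matrix and proteoglycan genes 11 (50%) were lower, 11 between and none higher, with a median log2 fold of -1.01. Of the Notch pathway, through which neighbouring cells signal, 15 genes were described and 6 (40%) were lower. The receptor Notch1 was 3.17-fold lower (76.1 and 78.0 CPM in control, 25.1 and 23.4 CPM in KD), Notch3 2.79-fold lower (129 to 46.3 CPM) and the ligand Jag1 2.44-fold lower (35.8 to 14.7 CPM). Lfng, which modifies Notch receptors, was the only higher gene at 2.204-fold, and the target Hes1 was not called (21.4 to 12.5 CPM).

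The genes of the nucleolus did not pass the call. None of the 34 listed genes of the nucleolus and ribosome biogenesis was called, with a median log2 fold of -0.01 and a range from -0.73 to 0.82. Over all genes described 16.2% were higher and 12.2% lower, but calls were rarer at high control levels. The shares were 7.88% and 6.74% from 20 to 100 CPM in control, and 2.54% and 4.86% from 100 CPM. Few calls among abundant genes such as Npm1 are thus not particular to the nucleolus. Npm1, nucleophosmin, stood at 2324 and 2369 CPM in control and at 2269 and 2254 CPM in KD, Ncl, nucleolin, at 1641 and 1561 CPM by group, and Fbl, fibrillarin, at 246 and 275 CPM. The difference of Npm1 is smaller than the shift that scaling gives. None of the 15 listed genes of RNA polymerase I was called, with a median of 0.05. Of 51 described ribosomal protein genes 50 were between, and Rpl34 was 14.1-fold higher (16.1 and 14.95 CPM in control, 209 and 230 CPM in KD). Ribosomal protein genes have many processed copies in the genome, so the reads of Rpl34 are uncertain.

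Polycomb genes were called in PRC1 but not in PRC2. PRC2, which methylates lysine 27 of histone H3, had none of its 12 described genes called, but 8 of them had a log2 fold below 0 and the median was -0.49; with scaling by total counts 2 were lower. Ezh2, its catalytic subunit, stood at 227 and 218 CPM in control and at 181 and 175 CPM in KD, Suz12 at 254 and 162 CPM by group, and Mtf2 at 347 and 192 CPM. PRC1, which ubiquitinates histone H2A, had 6 of 20 genes (30%) higher and none lower, against 16.2% and 12.2% over all genes described. Its median log2 fold was 0.09, beside 0.06 over all genes described, and 9 of the 20 lay below 0. Bmi1, a ring finger subunit common in differentiated cells, stood at 7.86 and 6.94 CPM in control and at 109 and 99.4 CPM in KD, 14.1-fold higher (interval 12.4 to 16.0). Cbx8, a chromodomain subunit, was 8.41-fold higher (2.07 to 17.4 CPM) and Cbx2 2.23-fold (34.5 to 77.0 CPM). Among linker and replacement histones H1f0, the linker histone of cells that have stopped dividing, stood at 107 and 118 CPM in control and at 739 and 765 CPM in KD, 6.70-fold higher (interval 6.48 to 6.93). The cell cycle inhibitors Cdkn2a and Cdkn2c were 3.31-fold (19.2 to 63.6 CPM) and 4.398-fold higher (2.89 to 12.7 CPM). The inhibitors Cdkn1b, Cdkn1c and Cdkn2b of the same list were between. Ccnd1 was 2.37-fold higher while Ccnd2 was 2.48-fold lower. Of the 30 cell cycle genes, 4 (13.3%) were higher, against 16.2% over all genes described, 1 was lower and 25 were between.

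Imprinted and Hox genes were called in both directions. Of 30 described imprinted genes, which are expressed from 1 parental copy, 8 (26.7%) were higher and 10 (33.3%) lower. Over all genes described 16.2% were higher and 12.2% lower. Among the higher were Mest, at 98.6 and 104 CPM in control and 623 and 630 CPM in KD (6.18-fold), Peg13 (26.0-fold), Nap1l5 (25.6-fold), Gnas (6.98-fold) and Peg3 (3.19-fold), and among the lower Igf2r (2.87-fold), Meg3 (2.76-fold), Grb10 (2.43-fold) and Igf2 (2.19-fold). Of 16 described Hox genes 5 (31.25%) were higher and 7 (43.75%) lower, but 3 of the 16 reached 1 CPM in KD alone and 6 in control alone. Of the 7 that did so in both groups 2 were higher and 3 lower, against 1748 and 1304 of all 13632 such genes. The 5 higher were Hoxc4, Hoxc5, Hoxc6, Hoxc9 and Hoxc10 of the HoxC cluster on chromosome 15, of which Hoxc13 was lower. Among them were Hoxc9 (0.397 to 20.8 CPM, 52.4-fold, with a log2 fold from 5.06 to 6.94 when a column was left out) and Hoxc10 (19.2-fold). The call of Hoxc4 was lost when a control column was left out (log2 fold from 0.89 to 1.96), and so was the lower call of Hoxb4 (from -1.86 to -0.85). Genes of antigen presentation were higher in part, with 5 of 16 described genes (31.25%) called, among them B2m (3.46-fold, 44.9 to 155 CPM) and Tap2 (10.4-fold, 1.67 to 17.4 CPM).

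The protein-coding genes with the lowest ratios held few of the listed pathways. After Gm2381 came Zyg11a, an adaptor of a ubiquitin ligase, at 28.2 and 26.5 CPM in control and 5.83 and 5.95 CPM in KD, 4.64-fold lower (interval 3.98 to 5.44), and Prrg4 at 4.24-fold (21.9 to 5.17 CPM). Cdyl2, a chromodomain protein, was 3.37-fold lower (59.4 to 17.7 CPM), Lrp2, an endocytic receptor, 3.33-fold (39.6 to 11.9 CPM) and Sorl1, a sorting receptor, 3.11-fold (103 to 33.1 CPM). Tet1 was 3.10-fold lower, the most of the naive list, at 897 and 874 CPM in control and 301 and 269 CPM in KD. At the edge of the call, Vcpkmt was just inside and Coq7 just outside on the higher side, and Dap just inside and Camk2b just outside on the lower side.

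The sign of the difference in embryos knocked out for LoNA was set beside these calls for genes described in both. At 18 h, 42.7% of 11491 genes had a KO mean above the control mean. The share was 40.9% of 1571 genes higher in KD mESC and 40.6% of 1075 genes lower. At 20 h it was 51.8% of all genes, 48.9% of genes higher and 49.1% of genes lower, and at 22 h 53.7%, 54.8% and 51.1%. At 18 h and 20 h the shares for genes higher and genes lower in mESC thus lay within 1 percentage point of each other. Asz1, nearly silent in control mESC, stood at 61.5 to 275 CPM in the control embryo columns.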

How the data were processed

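RNA of 2C-like mESC was sequenced from total RNA, per the labels' protocols. The authors deposited raw read counts per gene with Ensembl IDs, a mean signal per gene (counts divided by size factors) and a fold as a ratio, KD over control. The submitters' processing notes name Bowtie2 2.2.3, HISAT2 2.1.0, HTSeq 0.6.0 and the build mm10, without their roles; strand of counting and annotation are not given in the sources used here.

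The members, lists and alternatives were chosen with earlier results of these data known. Columns of a group were summed to 1 library, with no test in the main comparison. CPM used TMM factors (edgeR 4.0.16 in R 4.3.3). A group without counts was set to 3 counts over the group, so its fold is a lower bound. Genes needed 1 CPM in one group, which left out 13561 of 28921, and a call needed a 2-fold difference. Where a symbol had several rows (23 rows beyond the first), the row with the most control counts stood for it in the lists. In the alternatives and in the counts of members present in both groups, the row with the most total counts was used. The named genes are members of 46 fixed gene lists, the 15 protein-coding genes with the largest and the 15 with the smallest fold at 20 CPM or more, the 10 largest CPM differences each way, genes without counts in one group and at least 10 CPM in the other, those next to the threshold, and Gm17382. The embryo tables at 18 h, 20 h and 22 h gave signs and levels only. Alternatives were other scalings, filters and folds, leaving out each column, and edgeR's quasi-likelihood test and DESeq2 1.42.0 with columns as libraries, at an adjusted p of 0.05. The fold and the edgeR steps were tested on simulated data. Some members of the lists are not reported here.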

Additional observations from a re-analysis of the deposited data

How the results depend on the processing

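With a fold of 4 there were 1102 genes higher in LoNA KD and 101 genes lower in LoNA KD. With 5 CPM required 979 genes were lower (1891 higher), and with no filter beyond 10 counts 3292 were lower and 3245 higher. With columns taken as libraries, edgeR's quasi-likelihood test called 6378 genes higher and 5799 lower and DESeq2 called 5549 and 3933, but their p rests on columns this alike. With the column number as a replicate block edgeR called 6506 and 5903; the numbers come from no label that pairs columns. Leaving out each column gave 2463 to 2547 genes higher and 1842 to 1993 lower. The mesoderm median of 2.59 turned to -0.0748 with no filter, where 14 genes counted in place of 7, and was 1.30 without C1. The Rhox median of 5.85 ran from 4.82 to 5.72 when a column was left out, and was 3.53 with no filter and 7.44 with 5 CPM required. For genes without control counts the bound moved by up to 1.004 on the log2 scale when a control column was left out, since the floor of 3 counts then stands against 1 column. Of 833 log2 folds of single genes, none that was called changed sign under these scalings or left-out columns, and 42 moved by over 1.5 times when a column was left out, nearly all of them genes with few counts in a group. Depth limits genes without counts in a group, whose folds are bounds.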
